A study of Homo sapiens with 6 samples.

Results

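The HOX genes are described here in SW480, an established human colon adenocarcinoma line. Cells received either a control siRNA (si_NC) or an siRNA against ITGB4 (si_ITGB4), which encodes the integrin beta4 subunit. The members are the protein-coding genes whose symbol is HOX, a cluster letter from A to D and a number, 39 of the 58735 genes of the deposited table, taken by name and not by their values. There were 3 control siRNA and 3 ITGB4 siRNA libraries, stated to be biological replicates. All 6 came from the same line, whose genotype is labelled WT. The labels give no siRNA sequence, dose or time after transfection, so the knockdown is known here only from the ITGB4 RNA level. Libraries were made from poly(A)-selected total RNA of whole cultures, in which fewer cells of a type and less RNA per cell cannot be told apart.

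HOX genes encode transcription factors that bind DNA through a homeodomain. They lie in 4 clusters that arose by duplication, and genes at the same place in different clusters form a paralog group. Within a cluster, genes at the 3′ end (low numbers) are used earlier and nearer the head of the embryo, and genes at the 5′ end (high numbers) later and nearer the tail, including the hindgut. Adult gut epithelium keeps part of this pattern, and the caudal factor CDX2 is used as a marker of intestinal identity.

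The 4 clusters lay in GRCh38 at chr7:27092993-27200106 (HOXA, 11 genes, minus strand), chr17:48528526-48729178 (HOXB, 10 genes, minus strand), chr12:53938765-54056030 (HOXC, 9 genes, plus strand) and chr2:176092891-176190907 (HOXD, 9 genes, plus strand). The 30 coding bases around the conserved tryptophan of the third homeodomain helix, which contacts DNA, are printed to show how alike the members are at the DNA level where their function is shared. Capitals mark bases that differ from HOXB6, the member with the highest level. The windows come from the GENCODE 29 coding sequences and are given 5′ to 3′ on the gene's strand.
HOXB6: aagatatggttccagaaccgacgcatgaag
HOXB7: aagatTtggttTcagaaccgGcgcatgaag
HOXB9: aaAatCtggttTcagaaccgGcgGatgaaA
HOXA10: aaAatCtggttTcagaaccgCAgGatgaaA
HOXC10: aaAatCtggttTcaAaaTcgCAgAatgaaA
HOXB13: aCCatCtggttTcagaaccgCcgGGtCaaA
These windows lie at chr17:48596488-48596517 (HOXB6), chr17:48607923-48607952 (HOXB7), chr17:48622936-48622965 (HOXB9), chr7:27171962-27171991 (HOXA10), chr12:53989354-53989383 (HOXC10) and chr17:48726835-48726864 (HOXB13). Over all 39 members the window had 35 distinct DNA sequences, and 33 members encoded the same residues in it as HOXB6. HOXB7 differed from HOXB6 at 3 of the 30 bases, HOXB9 at 6, and HOXB13 and HOXC10 at 9 each. Across whole transcripts, HOXB3 and HOXD3 were the only members of different clusters to share any stretch of 50 bases, with 13 such stretches. Members of 1 cluster shared more: 14.6% of the stretches of HOXB6 were also in HOXB3 or HOXB7 transcripts, and 15.2% of those of HOXD10 were in HOXD11, so their levels are less certain.

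Small RNAs of the miR-196 and miR-10 families are encoded inside the same clusters, and textbook targets of miR-196 are HOX genes. Their mature sequences are printed from RefSeq (GRCh38.p14) with the seed, bases 2 to 8, in capitals.
hsa-miR-196a-5p: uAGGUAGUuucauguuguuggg
hsa-miR-196b-5p: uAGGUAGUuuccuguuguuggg
hsa-miR-10a-5p: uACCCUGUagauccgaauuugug
Both miR-196 forms share the seed AGGUAGU. They are encoded within the spans of HOXB7 and HOXC6 (miR-196a) and HOXA9 (miR-196b), and miR-10a within those of HOXB3 and HOXB4. The letters ACTACCT, which pair with the miR-196 seed, were searched on the transcript strand in each gene's longest annotated 3′ UTR. They were present in 9 of 39 HOX genes (23.1%), among them HOXA5, HOXA7, HOXA9, HOXB6, HOXB7 and HOXC8. Among 10557 tested genes with a 3′ UTR they were present in 7.89%, although the median UTR was shorter in HOX genes (866 bases) than in all tested genes (1357 bases). The letters ACAGGGT, which pair with the miR-10a seed, were in 3 of 39 HOX genes and in 14.8% of the tested genes. The windows below are those of HOXB6 and HOXB7, at high level, of HOXA7, which held 4 matches, and of HOXB8, which lacks ACTACCT but pairs with miR-196a-5p at more bases than any other HOX 3′ UTR. Capitals mark each base complementary to miR-196a-5p.
HOXB8: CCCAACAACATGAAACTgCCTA
HOXB7: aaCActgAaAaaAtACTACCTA
HOXB6: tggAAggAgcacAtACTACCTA
HOXA7: CCtActccCcTaAAACTACCTA
The HOXB8 window, at chr17:48612770-48612791, paired at 21 of 22 bases. The windows of HOXB7 (chr17:48607614-48607635), HOXB6 (chr17:48595934-48595955) and HOXA7 (chr7:27154430-27154451) paired at 13, 12 and 15 bases. A match is a description of the letters and shows no regulation, and mature miRNAs were not measured in these poly(A) libraries.

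The libraries held 13715266 to 15496274 reads assigned to genes, recovered from the deposited FPKM (fragments per kilobase of gene, scaled to the size of the library), and each had 24284 to 24968 genes above 0. Of these, 10229 to 11642 reads per library were in HOX genes. ITGB4, the siRNA target, was at 74.3, 63.8 and 69.8 FPKM in the control libraries and at 41.1, 38.1 and 37.9 FPKM in the ITGB4 siRNA libraries, without overlap. It fell by 0.81 on the log2(FPKM + 1) scale (95% interval -0.97 to -0.66, limma adjusted p = 0.0148). Its adjusted p by limma was 0.0317 and 0.042 without control library 1 or 2, 0.1 without control library 3 and 0.0699 to 0.137 without any 1 ITGB4 siRNA library, and 0.0618 without the filter on low values. With the replicate number as a block the limma adjusted p of ITGB4 was 0.0564. Of 12871 genes with a mean of at least 1 FPKM, 6 passed an adjusted p of 0.05, which is 0.0466%. The colon epithelial label was checked against 10 marker genes: EPCAM (mean 97.1 FPKM), KRT18 (567 FPKM), KRT19 (366 FPKM) and CDH1 (6.25 FPKM) were present, whereas KRT20 (0.0237 FPKM) and CDX1 (0.0128 FPKM), both genes of differentiated colon epithelium, were near 0. Fibroblast markers summed to 1.53 to 2.26 FPKM in control and 1.57 to 1.73 FPKM in ITGB4 siRNA libraries, with 4 of 9 at 0 throughout. Endothelial markers summed to 1.12 to 1.32 and 0.889 to 1.26 FPKM, with 2 of 6 at 0 throughout. Leukocyte markers summed to 3.21 to 3.63 and 3.003 to 3.55 FPKM, with 0 of 8 at 0 throughout. Among them PTPRC, which defines leukocytes, was at a mean of 0.00119 FPKM. In the fibroblast, endothelial and leukocyte lists 1 marker each reached a mean of at least 1 FPKM.

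SW480 cells expressed HOX genes of all 4 clusters, with the highest levels in the centre of HOXB. Per gene length, HOXB6 to HOXB9 alone held 52.8% to 53.4% of the summed FPKM of the 39 genes in each of the 6 libraries. By cluster, HOXB made up 68.3% to 69.3% of the HOX sum, HOXA 17.9% to 18.5%, HOXC 8.88% to 10.1% and HOXD 3.15% to 4.20%. A mean of at least 1 FPKM was reached by 27 members: 9 of 11 in HOXA, 9 of 10 in HOXB, 5 of 9 in HOXC and 4 of 9 in HOXD. A level of at least 10 FPKM was reached by 7 members, 6 of them in HOXB. The values on either side of the 1 FPKM limit were 1.22 FPKM for HOXC13 and 0.893 FPKM for HOXA13.

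**Figure D1:**
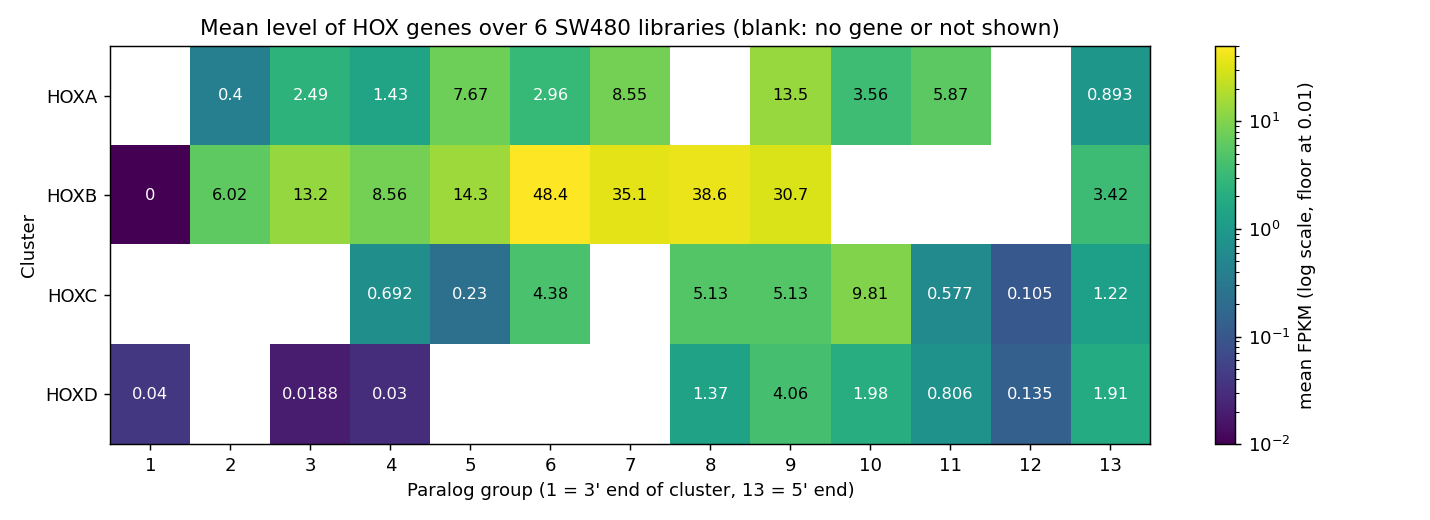
Mean FPKM over the 6 libraries of the HOX genes, with the cluster on the vertical axis and the paralog group on the horizontal axis; colour is on a log scale and blank squares are positions with no gene or no value shown. The row of HOXB is brightest from groups 6 to 9, and HOXD is near 0 in groups 1 to 4.

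By paralog group, the 12 members of groups 6 to 9 were all above 1 FPKM and held 68.0% to 69.3% of the HOX sum. The 15 members of groups 1 to 5 held 20.3% to 21.3%, with 8 above the limit, and the 12 members of groups 10 to 13 held 10.03% to 10.9%, with 7 above it. Group 6 was the highest (52.2 to 61.3 FPKM summed over its 3 members) and group 9 the next by mean (52.5 to 55.3 FPKM over 4), with ranges that overlapped. Group 12 was the lowest, at 0.0981 to 0.398 FPKM over HOXC12 and HOXD12. Group 13, the most posterior, summed to 7.10 to 7.88 FPKM over HOXA13, HOXB13, HOXC13 and HOXD13.

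When the 27 members above 1 FPKM were placed in order of mean level, 5 of the 26 neighbouring pairs had library ranges that did not overlap. These were HOXB6 above HOXB8, HOXB7 above HOXB9, HOXB9 above HOXB5, HOXB3 above HOXC10 and HOXA3 above HOXD10. In the other 21 pairs the order was within the spread between libraries. Reads per library for these members ran from 25 to 2090, so the lower members carry a larger counting error.

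In HOXB, the cluster with the most RNA, HOXB6 was the highest member of all. It was at 54.2, 45.3 and 50.7 FPKM in the control libraries and at 48.6, 45.4 and 45.9 FPKM in the ITGB4 siRNA libraries. HOXB8 followed with 40.8, 34.8 and 38.97 FPKM in control and 39.1, 39.8 and 38.4 FPKM in ITGB4 siRNA libraries. HOXB7 was at 34.2, 36.0 and 36.0 FPKM in control and 36.8, 34.2 and 33.1 FPKM in ITGB4 siRNA libraries. In each of these 3 the groups overlapped, and for HOXB6 and HOXB8 control library 1 was the highest of the 6. HOXB9, a posterior thoracic gene in the embryo, was at 30.6, 32.4 and 29.5 FPKM in control and 28.8, 31.3 and 32.0 FPKM in ITGB4 siRNA libraries. HOXB5, expressed in enteric neural and lung development, was at 14.8, 13.6 and 15.2 FPKM against 13.5, 14.7 and 13.97 FPKM. HOXB3 was at 13.7, 12.7 and 13.4 FPKM against 12.5, 12.8 and 14.005 FPKM. These also overlapped between the groups, with no library standing apart. HOXB4, known from blood stem cell expansion, was at 8.98, 8.35 and 8.54 FPKM against 8.34, 9.13 and 8.03 FPKM. HOXB2, a hindbrain gene, was at 5.58, 6.30 and 6.29 FPKM against 6.09, 5.24 and 6.63 FPKM. HOXB13, a gene of the hindgut, prostate and tail bud, was at 3.72, 3.11 and 3.35 FPKM in control and 3.04, 3.95 and 3.35 FPKM in ITGB4 siRNA libraries. Every value was below that of HOXB9, the next member of the cluster, and its groups overlapped. HOXB1, the most anterior gene, had 0 reads in every library, which at 3 reads over the 6 libraries allows up to 0.0136 FPKM, counting error only.

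**Figure D2:**
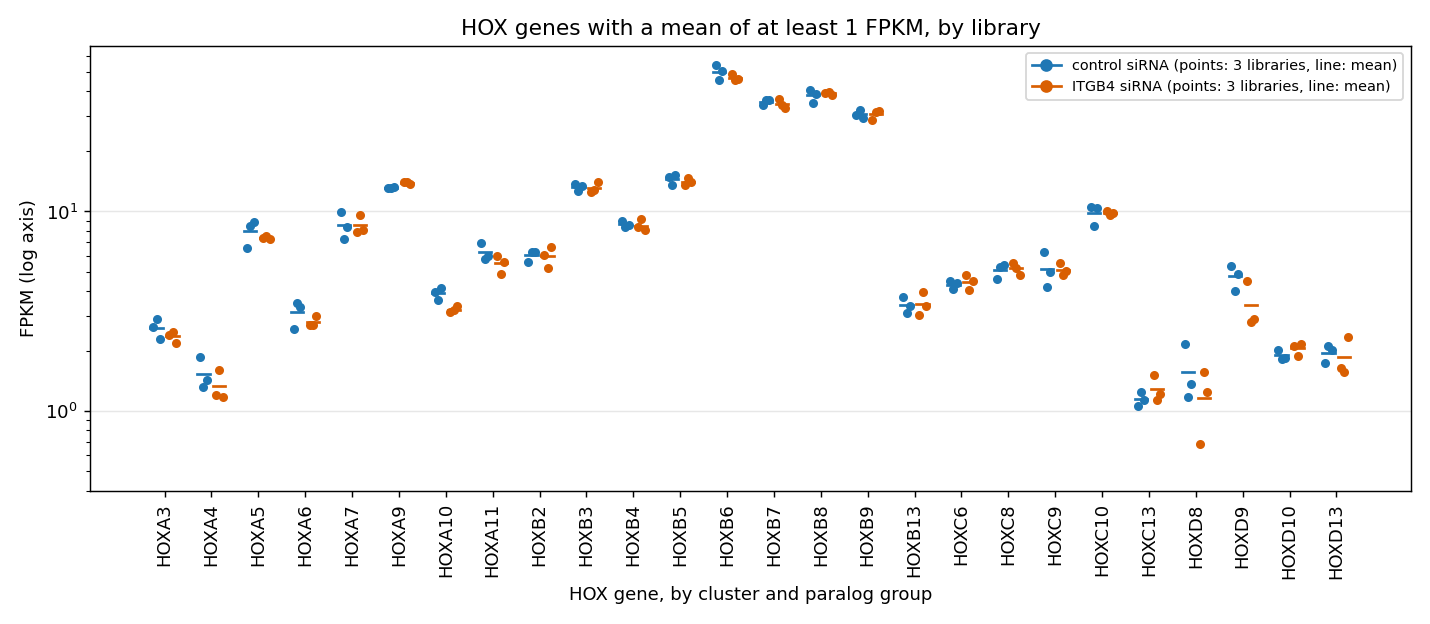
FPKM (log axis) of HOX genes with a mean of at least 1 FPKM in each of 3 control siRNA and 3 ITGB4 siRNA libraries, ordered by cluster and paralog group, with lines at group means. Points of the 2 groups interleave in all but HOXA9 and HOXA10, and the spread is widest in HOXD8 and HOXD9.

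In HOXA, HOXA9, a posterior gene also known from blood progenitors, was the highest. It was at 13.1, 13.1 and 13.2 FPKM in the control libraries and at 14.01, 14.1 and 13.7 FPKM in the ITGB4 siRNA libraries. HOXA10, which patterns the lumbar region and the uterus, was at 3.96, 3.59 and 4.12 FPKM in control and 3.14, 3.20 and 3.34 FPKM in ITGB4 siRNA libraries. The groups of both genes did not overlap: every ITGB4 siRNA library was above the control libraries for HOXA9 and below them for HOXA10, its neighbour on the 5′ side. HOXA11, which patterns the forearm and the uterus, was at 6.97, 5.76 and 5.97 FPKM against 6.01, 4.88 and 5.60 FPKM. HOXA7 was at 9.98, 7.28 and 8.38 FPKM against 7.94, 9.64 and 8.07 FPKM. HOXA5, which acts in lung and gut development, was at 6.57, 8.46 and 8.84 FPKM against 7.36, 7.55 and 7.26 FPKM. All 3 overlapped between groups, and in HOXA11 and HOXA7 control library 1 was the highest of the 6. HOXA6 was at 2.58, 3.47 and 3.32 FPKM against 2.70, 2.70 and 2.999 FPKM. HOXA3, a gene of the pharyngeal arches and thymus, was at 2.65, 2.88 and 2.30 FPKM against 2.41, 2.49 and 2.19 FPKM. The lowest HOXA member tested was HOXA4, at 1.86, 1.31 and 1.43 FPKM against 1.20, 1.61 and 1.18 FPKM, with 29 to 48 reads. HOXA13, a gene of the hindgut and the digits, stayed between 0.836 and 0.981 FPKM, and HOXA2, a gene of the second pharyngeal arch, between 0.24 and 0.646 FPKM.

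In HOXC, the level peaked at HOXC10, a gene of lumbar motor neurons and the hindlimb. It was at 10.6, 8.45 and 10.4 FPKM in the control libraries and at 10.03, 9.58 and 9.78 FPKM in the ITGB4 siRNA libraries. HOXC9, a thoracic motor neuron gene, was at 6.24, 4.18 and 5.003 FPKM against 5.55, 4.795 and 5.01 FPKM. HOXC8 was at 4.58, 5.25 and 5.38 FPKM against 5.54, 5.20 and 4.83 FPKM. Control libraries held both the lowest and the highest value of HOXC10 and HOXC9. HOXC6 was at 4.47, 4.08 and 4.38 FPKM against 4.83, 4.03 and 4.48 FPKM. HOXC13, known from hair and nail formation, was at 1.06, 1.253 and 1.14 FPKM against 1.52, 1.14 and 1.22 FPKM. Below the limit were HOXC4 (0.556 to 1.08 FPKM), HOXC11 (0.401 to 0.703 FPKM), HOXC5 (0.109 to 0.412 FPKM) and HOXC12 (0.0385 to 0.142 FPKM), so the cluster was lowest at HOXC12 and higher on both sides of it.

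In HOXD, RNA was found from HOXD8 towards the 5′ end. HOXD9, at chr2:176122720-176124937, was at 5.35, 4.01 and 4.84 FPKM in the control libraries and at 4.48, 2.80 and 2.89 FPKM in the ITGB4 siRNA libraries. HOXD10, a gene of the hindlimb and lumbar spinal cord, was at 2.03, 1.83 and 1.85 FPKM against 2.12, 1.90 and 2.17 FPKM. HOXD13, the gene of the digits and the terminal hindgut, was at 1.75, 2.11 and 2.02 FPKM against 1.64, 1.58 and 2.35 FPKM. The groups of all 3 overlapped. For HOXD9 the overlap was ITGB4 siRNA library 1, which lay above control library 2, while the other 2 ITGB4 siRNA libraries were below every control library. HOXD8 was at 2.16, 1.18 and 1.37 FPKM against 0.686, 1.57 and 1.246 FPKM, a spread of 25 to 84 reads. HOXD11 (0.479 to 1.19 FPKM) and HOXD12 (0 to 0.268 FPKM) were below the limit. The 3 anterior members, HOXD1, HOXD3 and HOXD4, had at most 3 reads in any library. HOXD3 and HOXD4 shared 62.2% and 80.5% of their exon bases with another gene on the same strand. HOXD1 shared 58.1% on the opposite strand. How reads in shared stretches were counted is not given, so these low counts do not show that the RNA was absent.

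The comparison of ITGB4 siRNA with control siRNA found no HOX gene past the threshold: 0 of the 27 tested members had a limma adjusted p under 0.05, where 0.0466% of all tested genes did. At an unadjusted p under 0.05 there were 2 members, HOXA10 and HOXD9, where 5.83% of all tested genes passed. Limma-voom on the recovered reads also called 0 of the 27. The groups did not overlap for 2 of 27 members (7.41%), HOXA9 and HOXA10, against 11.1% of all tested genes. In 1 of 27 they lay apart with the ITGB4 siRNA libraries lower, against 5.36% of all. These shares were near the background. The difference was above 0 for 11 members and below 0 for 16 (59.3%, against 51.5% of all genes). Its median was -0.0196 on the log2(FPKM + 1) scale, against -0.0034 over all tested genes, and the median size regardless of sign was 0.0544, against 0.0586.

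HOXA10, at chr7:27170591-27180261, had the smallest p of the members. Its log2(FPKM + 1) differed by -0.21 (95% interval -0.37 to -0.05), with an adjusted p of 0.744 by limma and an exact two-sided permutation p of 0.1, the smallest that 3 against 3 libraries can give. HOXD9 differed by -0.40 (95% interval -0.78 to -0.02, limma adjusted p = 0.835). HOXA9 differed by 0.08 (95% interval -0.02 to 0.18, limma adjusted p = 0.945). Neither the lower HOXA10 and HOXD9 nor the higher HOXA9 passed. HOXD8 differed by -0.25 and HOXA11 by -0.16, both with intervals that included 0. With 1 library left out, HOXD8 ranged from -0.38 to -0.08 (smallest without ITGB4 siRNA library 1, -0.09 without control library 1 and largest without ITGB4 siRNA library 2). HOXA11 ranged from -0.21 to -0.08, smallest without control library 1 and -0.09 without ITGB4 siRNA library 2. Among the 4 most abundant members the differences were -0.10 for HOXB6, -0.03 for HOXB7, 0.04 for HOXB8 and -0.01 for HOXB9. The HOXB6 difference was -0.04 without control library 1 and -0.17 without control library 2. A difference on this scale understates the change of low genes.

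The intervals show what size of change in FPKM + 1 these libraries could still hold. For all 27 tested members the 95% interval stayed within 50% of no change in FPKM + 1, and for 23 within 25%. On this scale the widest lower bound was -41.7%, for HOXD9, and that of HOXD8 was -39.7%. The added 1 FPKM makes these bounds narrower than those of FPKM itself, most of all in members near 1 FPKM. So 50% on this scale is not a limit on the change in FPKM. For HOXB7 the interval ran from -0.16 to 0.09 and for HOXB9 from -0.15 to 0.13 on the log2 scale. A p that misses the threshold does not show that levels were equal. The summed FPKM of all 39 members was 303, 279 and 294 in the control libraries and 287, 284 and 283 in the ITGB4 siRNA libraries, which overlap. By cluster, the sums overlapped between groups for HOXA, HOXB and HOXC. The HOXD sum was 12.7, 10.2 and 10.7 FPKM in control and 9.75, 8.95 and 9.83 FPKM in ITGB4 siRNA libraries, which do not overlap, with most of the gap in HOXD9 and HOXD8. Both of these overlapped between groups, as did every other HOXD member. Among all tested genes, taken singly, 11.1% did not overlap.

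**Figure D3:**
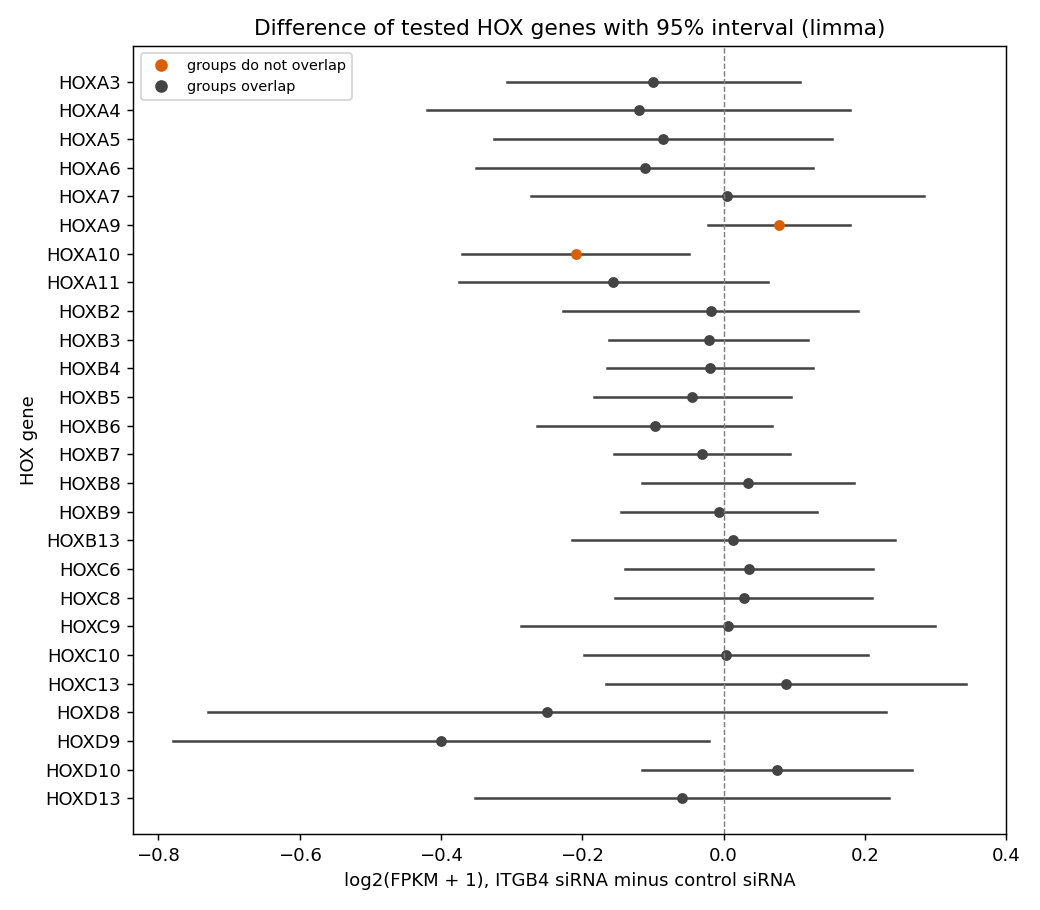
Difference in log2(FPKM + 1), ITGB4 siRNA minus control siRNA, for tested HOX genes (points) with its 95% interval from limma (lines). Orange points are HOXA9 and HOXA10, whose groups do not overlap; the intervals of HOXA10 and HOXD9 are the ones that exclude 0.

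Exons of several members overlap those of other genes on the same or the opposite strand, and whether the reads were counted by strand is not given in the sources used here. Of the 27 tested members, 9 had no overlapping exon, namely HOXA5, HOXB7, HOXB8, HOXB9, HOXB13, HOXC8, HOXD8, HOXD9 and HOXD13. The opposite-strand overlap was 62.5% of exon bases in HOXA7 (with HOXA-AS3), 39.3% in HOXA6 and 31.1% in HOXA11 (with HOXA11-AS). HOXA10 shared 16.4% with HOXA10-AS on the opposite strand and 9.93% on its own strand, and HOXA9 shared 13.9% and 15.9%. HOXB6 shared 16.6% with HOXB3 and 16.3% with HOXB-AS3. HOXA4 shared 31.0% on its own strand, and HOXC5, which was not tested, shared 59.9%. Reads in the same-strand stretches cannot be assigned to 1 gene. Those in the opposite-strand stretches can be assigned only if counting was by strand. The levels of those members are therefore less certain.

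Within the cluster spans the table held 59 genes that are not members, most of them antisense or other noncoding RNAs, and 17 of these were tested. HOXB-AS3 had the highest level, at 28.7, 29.4 and 29.8 FPKM in control and 28.6, 30.5 and 30.8 FPKM in ITGB4 siRNA libraries. Its exons overlap those of HOXB3, HOXB5 and HOXB6 on the opposite strand. HOTAIR, a long noncoding RNA of HOXC known to bind chromatin regulators, was at 6.73, 6.04 and 5.60 FPKM against 5.55, 6.39 and 5.73 FPKM. HAGLROS, in HOXD, was at 7.42, 5.36 and 6.79 FPKM against 5.54, 5.43 and 5.50 FPKM. These 3 overlapped between groups. HOXC-AS2, whose exons overlap those of HOXC6 and HOXC9, was at 2.23, 2.07 and 2.04 FPKM in control and 3.09, 2.48 and 2.81 FPKM in ITGB4 siRNA libraries. Its groups did not overlap, as was so for 11.1% of all tested genes. The HOXC-AS2 difference of 0.28 did not pass (95% interval 0.08 to 0.48, limma adjusted p = 0.683). The MIR196A1 row, a 70-base hairpin gene with 15 to 23 reads per library, was at 18.3, 15.4 and 14.1 FPKM against 17.5, 19.6 and 21.1 FPKM. It did not pass either (difference 0.27, limma adjusted p = 0.816). HOXB-AS1, below the limit, was at 1.04, 0.822 and 1.01 FPKM in control and 0.417, 0.588 and 0.577 FPKM in ITGB4 siRNA libraries, without overlap and on 9 to 24 reads.

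One gene inside a cluster passed the test, AC012531.4, a misc_RNA of 151 bases at chr12:53968351-53968501 (GRCh38, plus strand). It was chosen after its values were seen. It lies within the span of HOTAIR, which is on the minus strand, between HOTAIR exons 2 and 3 and 116 bases from the nearer one, with 0 bases in any HOTAIR exon. Its sequence is printed because it is the site of the only call in the 4 clusters.
AC012531.4: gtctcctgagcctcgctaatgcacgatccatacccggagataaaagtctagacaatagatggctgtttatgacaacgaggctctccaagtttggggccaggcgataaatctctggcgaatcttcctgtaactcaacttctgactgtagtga
The control libraries had 1 read each, and ITGB4 siRNA libraries 1, 2 and 3 had 8, 6 and 7, or 0.448, 0.447 and 0.435 FPKM against 3.82, 2.60 and 2.98 FPKM. The ratio of summed reads, 21 against 3 and scaled by library totals, was 7.05 (exact 95% interval 2.11 to 36.9, counting error only). Its log2(FPKM + 1) was 1.51 higher (95% interval 1.21 to 1.80, limma adjusted p = 0.0148). The gene met the limit of a mean of at least 1 FPKM only through the ITGB4 siRNA libraries (mean 3.13 FPKM). Its control mean was 0.443 FPKM, so passing the test is no support for a change. The limma interval comes from the spread between libraries and does not carry the counting error of 1 read per control library. The limma adjusted p was 0.357 when the recovered reads were weighted by their counting precision (limma-voom), 0.0776 without the filter on low values and 0.0699 to 0.1 without any 1 library. With the replicate number as a block the limma adjusted p was 0.122. The difference was 2.56 with a pseudocount of 0.1 FPKM and 2.32 by limma-voom. AC012531.3, a neighbour of similar read number, ranged from 0.381 to 4.82 FPKM within the control libraries alone. What sets the read number of so short a gene was not tested.

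**Figure D4:**
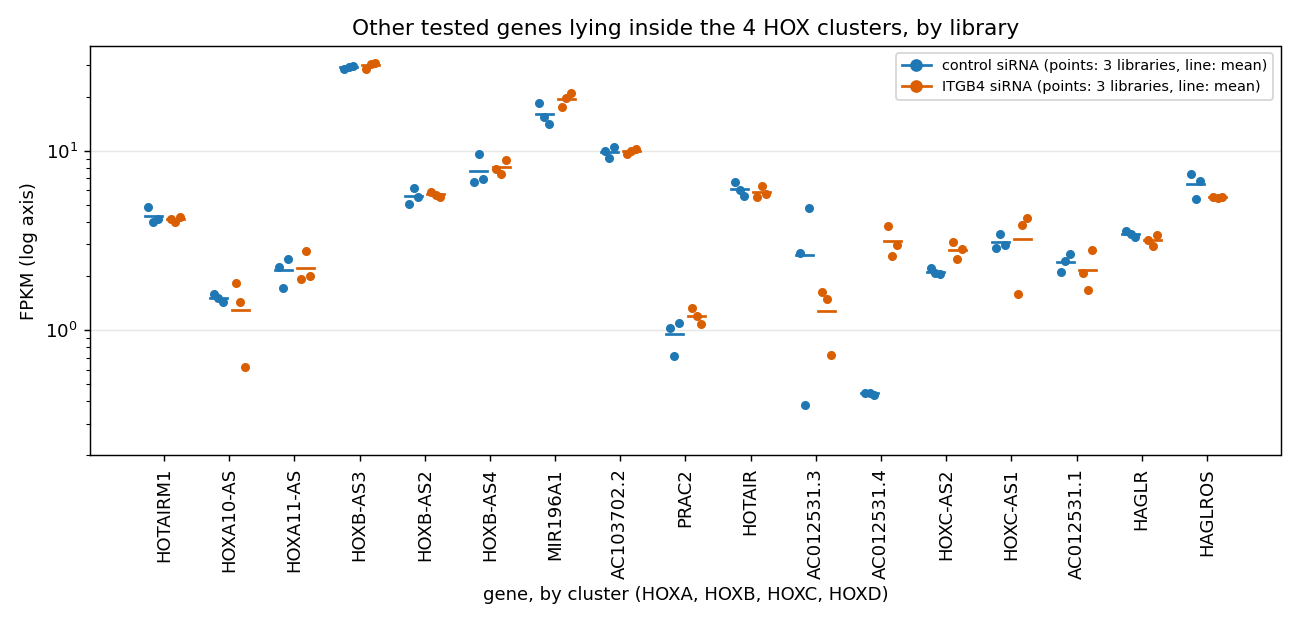
FPKM (log axis) of the 17 tested genes other than members that lie inside the 4 HOX clusters, in each of 3 control siRNA and 3 ITGB4 siRNA libraries, with lines at group means. The groups interleave for 15 of them, and AC012531.4 (0.435 to 0.448 against 2.60 to 3.82 FPKM) and HOXC-AS2 (2.04 to 2.23 against 2.48 to 3.09 FPKM) lie apart. Among all tested genes 11.1% lie apart, so this count is near the background.

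Genes that act on or with HOX genes were read from 10 lists of 158 genes, of which 156 were in the table and 106 were tested. None passed by limma or limma-voom (0 of 106 by each), and by limma 8 had an unadjusted p under 0.05 (7.55%, against 5.83% of all tested genes), 3 of them higher and 5 lower with ITGB4 siRNA. CDX2, the caudal factor of the intestine and an upstream regulator of posterior HOX genes, was at 24.9, 18.9 and 22.7 FPKM in control and 21.9, 19.9 and 19.4 FPKM in ITGB4 siRNA libraries. Its difference was -0.11 (95% interval -0.35 to 0.14), and it was -0.02 without control library 1, -0.21 without control library 2 and -0.07 without ITGB4 siRNA library 3. Its groups overlapped, and CDX1, the paralog of CDX2, was at 0 in 5 of 6 libraries.

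The ParaHox genes, evolutionary sisters of the HOX genes, had 3 of 6 members tested: besides CDX2, these were PDX1 (mean 4.37 FPKM, difference -0.05), the pancreatic and duodenal factor, and GSX1 (2.35 FPKM, 0.11). Of 14 hindgut and distal colon genes, 4 were tested, with 1 above 0. PRAC2, which lies in the HOXB cluster between HOXB9 and HOXB13, was near the limit at 1.07 FPKM, and WFDC2 was at 9.73 FPKM. In the same list 6 of 14 were listed at 0 in every library (B3GNT6, CA1, AQP8, INSL5, CEACAM5 and CEACAM7), and PRAC1, the neighbour of PRAC2, averaged 0.198 FPKM. Of 13 genes listed as foregut and proximal gut, 2 were tested, PDX1 and HNF4A (1.60 FPKM). HNF4A is not confined to the proximal gut, so its level is no sign of a proximal identity. SOX2, a foregut factor, averaged 0.524 FPKM, and GATA4 was among 4 listed at 0 throughout. None of these lists held a gene with an unadjusted p under 0.05.

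The TALE factors, homeodomain proteins of which some bind DNA together with HOX proteins, had 7 of 11 members tested. TGIF1 and TGIF2, which are not counted among these partners, were among the tested. PBX2 was the highest at 9.38 FPKM, and MEIS1 averaged only 0.324 FPKM. In 6 of the 7 the difference was below 0, with a median of -0.08. PKNOX1 was at 6.02, 5.95 and 6.12 FPKM in control and 5.49, 5.59 and 5.27 FPKM in ITGB4 siRNA libraries, without overlap, and differed by -0.12 (limma adjusted p = 0.851). MEIS3, at 1.70, 1.34 and 1.31 FPKM against 1.20, 1.15 and 1.254 FPKM, did not overlap either, with a limma adjusted p of 0.994. PKNOX1 and MEIS3 were named for the smallest p. Groups lay apart for 2 of the 7 tested, against 11.1% of all tested genes.

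Polycomb repressive complexes, which silence HOX genes, had all 28 listed members tested, 17 above 0 and 11 below, with a median of 0.02. RBBP7, a histone-binding subunit, was the highest at 44.0 FPKM. RYBP was at 4.66, 4.26 and 4.802 FPKM against 4.03, 3.86 and 3.95 FPKM, and KDM2B, which brings polycomb to CpG islands, at 3.20, 2.93 and 2.77 FPKM against 3.58, 3.56 and 3.38 FPKM. Both lay apart, RYBP lower and KDM2B higher, with limma adjusted p of 0.81 and 0.812. Both were named for the smallest p, and groups lay apart for 4 of the 28, against 11.1% of all tested genes. Trithorax factors and other activators, which keep HOX genes active, had 20 of 20 tested, 10 on each side of 0. KMT2D, a histone H3 methyltransferase, was at 21.5, 19.2 and 20.9 FPKM against 18.9, 18.1 and 18.3 FPKM (difference -0.15, limma adjusted p = 0.812), and WDR5, a shared subunit, was the highest at 36.1 FPKM.

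The 9 genes of cluster organisation, cohesin and its partners, were all tested, with 3 above 0 and 6 below, and RAD21 was the highest at 49.9 FPKM. Of 17 genes flanking the clusters, 14 were tested, with 9 above 0 and 5 below, and HNRNPA1 was the highest at 221 FPKM. Retinoic acid signalling, which induces anterior HOX genes in the embryo, had 9 of 17 genes tested, with 4 above 0. CRABP2, a retinoic acid carrier, was the highest at 204 FPKM. DHRS3, a retinaldehyde reductase, was at 7.66, 6.58 and 7.70 FPKM in control and 6.11, 6.02 and 6.30 FPKM in ITGB4 siRNA libraries, without overlap, and differed by -0.22 (limma adjusted p = 0.741). It was named for the smallest p, and in this list groups lay apart for 2 of the 9 tested, against 11.1% of all tested genes.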

How the data were processed

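RNA of 6 SW480 libraries (3 per siRNA) was sequenced by the authors. The deposited table gives FPKM per gene, per the file headers. Per the submitters' processing notes, GRCh38 was the build and DESeq2 and edgeR were among the tools; the aligner and the counting settings are not given in the sources used here. All 58735 genes matched GENCODE 29. FPKM times gene length gave whole reads (within 0.01 of a whole number) for 100% of values. Genes with a mean of at least 1 FPKM over 6 libraries (12871, including 27 HOX genes) were tested on log2(FPKM + 1) with limma 3.58.1 (trend, R 4.3.3, two-sided). Benjamini-Hochberg adjustment was over all of them, threshold 0.05. The procedure was tested on simulated data with changes planted only in genes of at least 5 FPKM, so changes in lower genes were not simulated. With 3 libraries per group, p-values measure only the spread between these samples if the cultures were not separate. HOX genes were all counted; from each related list the genes with the smallest p and the most abundant one were named, plus CDX1 and CDX2; a few genes and sequences that the rule covers are not reported here, though counts include them. The members and lists were chosen with earlier results of these data known. Alternatives were another pseudocount, filter, scaling, a replicate block, leaving out each library and limma-voom on the recovered reads.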

Additional observations from a re-analysis of the deposited data

How the results depend on the processing

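No HOX gene was called under any alternative run. Of the 27 members, 14 kept the sign of their difference under every alternative. The number of all genes called moved from 6 to 0 without the filter on low values, to 0 with the replicate number as a block, to 26 with limma-voom (chosen after seeing the data), and ranged from 0 to 7 when 1 library was left out, with 3 without control library 3 and 0 without any 1 ITGB4 siRNA library. The number of HOX genes whose groups did not overlap moved from 2 to 1 at a mean of at least 5 FPKM, where fewer genes are tested, and to 3 to 6 with 1 library left out, where fewer libraries can overlap. Under the replicate block the HOX median stayed at -0.02, and the limma adjusted p was 0.0564 for ITGB4 and 0.122 for AC012531.4. Deviations of same-numbered libraries correlated at 0.173, 0.102 and -0.01, and those of differently numbered ones at -0.174 to 0.0862. The labels give no pairing, and so few values cannot decide whether equal numbers mark paired cultures.

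Signs of small differences changed when 1 library was left out. The ranges were -0.093 to 0.11 for HOXA7, -0.084 to 0.061 for HOXB2, -0.067 to 0.0093 for HOXB3, -0.067 to 0.016 for HOXB4, -0.071 to 0.0018 for HOXB7, -0.029 to 0.083 for HOXB8 and -0.037 to 0.039 for HOXB9. They were -0.066 to 0.080 for HOXB13, -0.015 to 0.092 for HOXC6, -0.031 to 0.071 for HOXC8, -0.11 to 0.13 for HOXC9, -0.091 to 0.054 for HOXC10 and -0.18 to 0.0099 for HOXD13. For related genes they were -0.15 to 0.069 for PDX1, -0.010 to 0.015 for HNF4A, -0.0013 to 0.023 for WDR5, -0.049 to 0.052 for RAD21, -0.0072 to 0.14 for SMC3 and -0.023 to 0.049 for HNRNPA1. HOXB9 was at 0.0018 with limma-voom, and RAD21 at 0.0027 with limma-voom and 1.78e-05 as TPM. The planned edgeR and DESeq2 fits were not run, since the deposited unit is FPKM. The cause of these changes was not tested. Reads per library were as few as 25 for HOXD8 and 29 for HOXA4.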
